A study of Mus musculus with 24 samples.

Results

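The genes of mouse chromosome 14 were followed across 4 lines of ID8 mouse ovarian cancer cells. All genes annotated to this chromosome with a mean of at least 40 unique molecular identifiers (UMIs, each a counted RNA molecule) over the 24 libraries were taken, without the interferon-induced genes Irf9, Psme1 and Psme2, which left 255 genes of the 884 listed on the chromosome and of 24614 in all. Of these 255, 224 are protein-coding, 28 are pseudogenes and 3 are other noncoding genes, and all 255 were among the 11698 genes tested. The chromosome was selected on the measured RNA levels of its genes, which were higher in one clone, 2CD7, so the height of 2CD7 over the other lines is given as a description, and edgeR calls on it are printed but are not evidence for it. Just inside the minimum lay Sfmbt1 and Cdv3-ps, both with a mean of 40.2 UMIs, and Gm18078 with 40.5, while Ccar2 with 39.96, Gm5456 with 38.8 and Zmym2 with 38.6 lay just outside. Their untreated log2 differences of 2CD7 from the mean of the other lines were 0.20, -0.17 and 0.40 inside and 0.26, 0.53 and 0.38 outside.

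All cells were Trp53 Brca2 double knockout ID8 cells, a line derived from mouse ovarian surface epithelium. WT cells were not transfected, EV cells carried the CRISPR empty vector, and 1CF10 and 2CD7 were clones with a knockout of Ifnar1, the gene of an interferon receptor chain. Each line was left untreated or treated for 3 h with 10000 IU/ml of recombinant mouse IFN beta, a type I interferon, and each of the 8 groups has 3 libraries. These 3 are technical replicates from 1 treatment date, so p-values measure technical spread within a line, and each knockout line is 1 clone. Whatever set a clone apart before the edit cannot be told apart from the edit itself.

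Cells with an extra or missing copy of a chromosome tend to make more or less RNA from the genes it carries, and cancer cell lines and the clones grown from them often differ in this way. For most genes RNA follows the number of gene copies, while some are held near a set level by feedback. These counts are of RNA, so DNA copy number was not measured. In bulk RNA, fewer cells expressing a gene and less RNA per cell cannot be told apart.

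Libraries held 1972192 to 3097331 UMIs, with 1.15% to 1.82% from mitochondrial genes. Of the 10 epithelial and mesothelial markers analysed, Krt8, Krt18, Krt19, Msln and Wt1 had 125 CPM or more in every library (CPM being UMIs normalised to library size and composition) and Gpm6a 34.7 or more. Upk3b had 0.80 to 13.5 CPM, and Krt7, Cdh1 and Lrrn4 had 21, 12 and 10 UMIs over all libraries, while Epcam and the leukocyte markers Ptprc, Cd3e and Adgre1 were not analysed here. The 4 leukocyte markers analysed summed to 9.82 to 24.0 CPM and the 2 listed of 4 endothelial markers to at most 1.52 CPM. The 5 listed of 6 fibroblast markers summed to 135 to 194 CPM in 1CF10, mostly Col1a1, and to 29.1 to 87.7 CPM in the other lines, while Pdgfra, Pdgfrb and Thy1 had 1 UMI each over all libraries. Ifnar1 had 4.33 to 9.47 CPM in 2CD7, 6.07 to 12.5 in 1CF10, 8.98 to 13.0 in EV and 8.94 to 16.7 in WT, and tags from the 3′ end need not show an edit elsewhere in the gene. Treated 1CF10 library 3 stood apart: its chi-square per gene was 4.90 and 3.82 against the others of its group, while pairs within groups otherwise gave 1.42 to 2.80.

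The members made up more of the RNA in 2CD7 than in any other line, with or without IFN beta. Their share of a library's UMIs was 3.20%, 3.24% and 3.25% in the untreated 2CD7 libraries in ascending order, and 3.18%, 3.22% and 3.28% in the treated ones. WT libraries held 2.97% to 3.03%, EV libraries 2.74% to 2.80% and 1CF10 libraries 2.77% to 2.84%. The 6 libraries of 2CD7 lay above the 18 others, the 6 of WT lay between, and EV and 1CF10 overlapped. The group means were 3.23% ± 0.025 (SD, n = 3) in untreated 2CD7, 3.00% ± 0.021 in WT, 2.82% ± 0.026 in 1CF10 and 2.79% ± 0.015 in EV.

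A measure that gives each gene equal weight ordered the lines likewise. It is the median over the 255 members of the log2 level, with each gene centred on its mean over the 24 libraries. This level was 0.134 to 0.182 in 2CD7, 0.0032 to 0.047 in WT, -0.087 to -0.064 in 1CF10 and -0.107 to -0.074 in EV. Untreated and treated libraries of 2CD7 overlapped, with means of 0.162 ± 0.018 (SD, n = 3) and 0.149 ± 0.014.

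**Figure D1:**
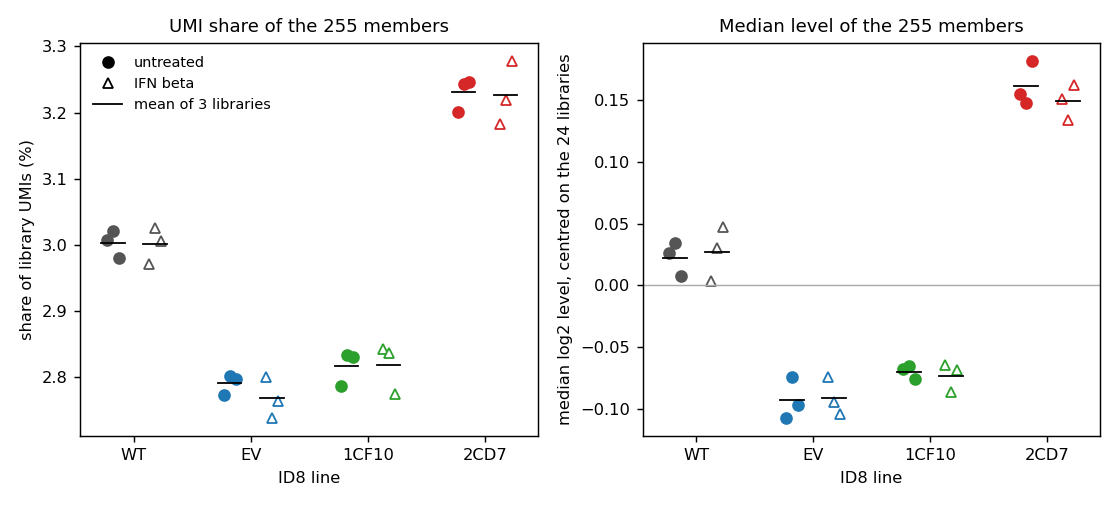
Share of library UMIs from the 255 chromosome 14 genes in percent (left) and their median centred log2 level (right) in each library of WT, EV, 1CF10 and 2CD7; filled circles are untreated, open triangles IFN beta, lines the mean of 3 libraries, and the vertical axes do not start at 0. The 6 libraries of 2CD7, at 3.18% to 3.28%, lie above all others, and WT lies above EV and 1CF10.

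Of the 255 members, 229 were fitted higher in untreated 2CD7 than in the mean of the other 3 lines and 26 lower. The median log2 difference was 0.21, a fold of 1.16, where the median over all 11698 genes tested was 0.0058. The middle members by rank, from the lower to the upper quartile, lay between 0.11 and 0.31. By edgeR's quasi-likelihood test with an adjusted p below 0.05, 77 members were called higher and 0 lower, where 3.51% of all genes tested were called higher and 2.62% lower. These calls rest on the contrast for which the chromosome was picked, and nothing is read from them. Without untreated 2CD7 library 2 or 3 the calls numbered 44 and 38, with a median of 0.19 to 0.21 over all libraries left out in turn.

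After IFN beta, 213 of 255 members were fitted higher in 2CD7, with a median log2 difference of 0.22. Here 91 were called higher and 3 lower, beside 5.84% and 5.87% of all genes tested, and 5 were called lower without treated 1CF10 library 3. The 3 called lower were Elf1, Fndc3a and Pnp, at -0.60, -0.55 and -0.38, and these are genes that rose in the control lines after IFN beta (given further on). The untreated and treated differences, from different libraries of the same lines, had a Pearson r of 0.474 and a Spearman rho of 0.488 across the 255 members, and 201 were above 0 in both. Genes are not independent replicates, and the rule for members used these differences.

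Across the 20 chromosomes analysed, with genes taken at the same minimum, chromosome 14 had the highest median in 2CD7. It was picked for its height in this clone, so its rank is a description only. The medians of the other 19 ran from -0.071 to 0.063 untreated and from -0.082 to 0.058 treated. Shifts of this size or larger occurred on other chromosomes in the other lines: the medians of the other 19 ran from -0.037 to 0.25 in untreated EV against WT, and from -0.36 to 0.066 in untreated 1CF10 against the mean of WT and EV.

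The line with a member's highest level was 2CD7 for 168 of the 255 (65.9%) untreated and 153 (60.0%) treated, against 17.9% and 17.0% of the 7373 genes of other chromosomes at the same minimum. The lowest level was in 2CD7 for 11 members (4.31%) untreated, in EV for 107 (42.0%) and in 1CF10 for 85 (33.3%). Of the genes of other chromosomes, 20.0%, 24.9% and 24.9% were lowest in these lines. In 48 members (18.8%) all 3 untreated 2CD7 libraries lay above the 9 other untreated libraries, against 1.14% of the genes of other chromosomes, and in 0 members did they all lie below, against 1.68%. All 48 were protein-coding. After IFN beta 37 members (14.5%), all protein-coding, had 2CD7 above all others, against 1.37% of the genes of other chromosomes, and 0 had it below, against 2.12%.

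The distance from 2CD7 differed with the line it was set against. Ratios of mean CPM, untreated, had a median of 1.09 against WT, 1.19 against EV and 1.18 against 1CF10, and treated of 1.09, 1.2 and 1.16. Quartiles were 1.01 and 1.19 against WT, 1.09 and 1.31 against EV, and 1.03 and 1.31 against 1CF10, untreated. Ratios between 1.2 and 1.8 were found for 58, 119 and 105 members (22.7%, 46.7% and 41.2%), and ratios above 1.8 for 0, 2 and 8. Of the 7373 genes of other chromosomes, 7.64%, 8.54% and 12.0% had ratios between 1.2 and 1.8. Ratios above 1.8 were found for 4, 41 and 60 of these 7373. The median fold of a member thus stayed near or below 1.2 against each line.

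Against WT alone, 26 untreated members were called higher and 1 lower by edgeR, beside 1.8% and 1.86% of all genes. Against EV the counts were 75 and 2, beside 4.35% and 4.61%, and against 1CF10 they were 81 and 2, beside 7.82% and 5.51%. Treated counts were 44 and 14 against WT (5.45% and 8.31% of all genes), 96 and 6 against EV (7.36% and 8.37%), and 82 and 3 against 1CF10 (8.57% and 6.64%). These 3 contrasts share the 2CD7 libraries and are part of the description. The counts against WT were the least stable: without untreated WT library 3 or untreated 2CD7 library 1 there were 10 calls, without WT library 2 13, without 2CD7 library 3 15 and without 2CD7 library 2 17, and without treated WT library 3 there were 29 treated calls higher and 9 lower. Against EV the untreated calls were 49 without 2CD7 library 2 and 47 without EV library 1.

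The kinds of gene are given apart as a description, with no test between them. The 224 coding members had a median log2 difference of 0.23 untreated and 0.24 treated, and the 31 pseudogene and noncoding members 0.068 and 0.0085. Processed pseudogenes are copies of spliced messages, and reads of their parent genes on other chromosomes can be counted to them, so their counts are uncertain. Of the noncoding members 26 of 31 were above 0 untreated and 18 treated.

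**Figure D2:**
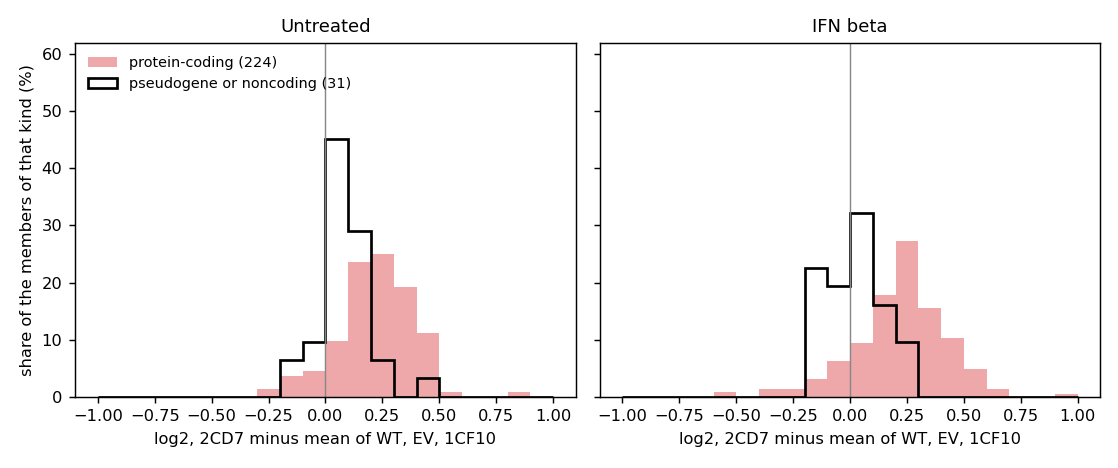
Log2 difference of 2CD7 from the mean of WT, EV and 1CF10, untreated (left) and after IFN beta (right), as the share of the 224 protein-coding members (filled) and of the 31 pseudogene or noncoding members (black outline) in bins. The coding members centre on medians of 0.23 and 0.24, the others on 0.068 and 0.0085.

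The last member along the chromosome was the pseudogene Gm9308, which starts at base 123698141 (GRCm38). The chromosome was divided into 20 Mb windows, and all 7 had a median above 0 in 2CD7 against the mean of the other lines, from 0.11 to 0.28 untreated and from 0.049 to 0.28 treated. Only 3 windows held at least 20 members: from 20 to 40 Mb the median of 53 members was 0.28 untreated and 0.26 treated, from 40 to 60 Mb that of 80 members was 0.21 and 0.21, and from 60 to 80 Mb that of 68 members was 0.16 and 0.19. The other 4 windows held 7 to 18 members each. Against WT the 3 filled windows had medians of 0.12 to 0.15 in both states, and 1 thin window, from 0 to 20 Mb with 18 members, was just under 0 in treated cells at -0.021. In windows of 10 Mb, all 13 medians were above 0 against the mean of the other lines, down to 0.0015 in the treated cells.

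**Figure D3:**
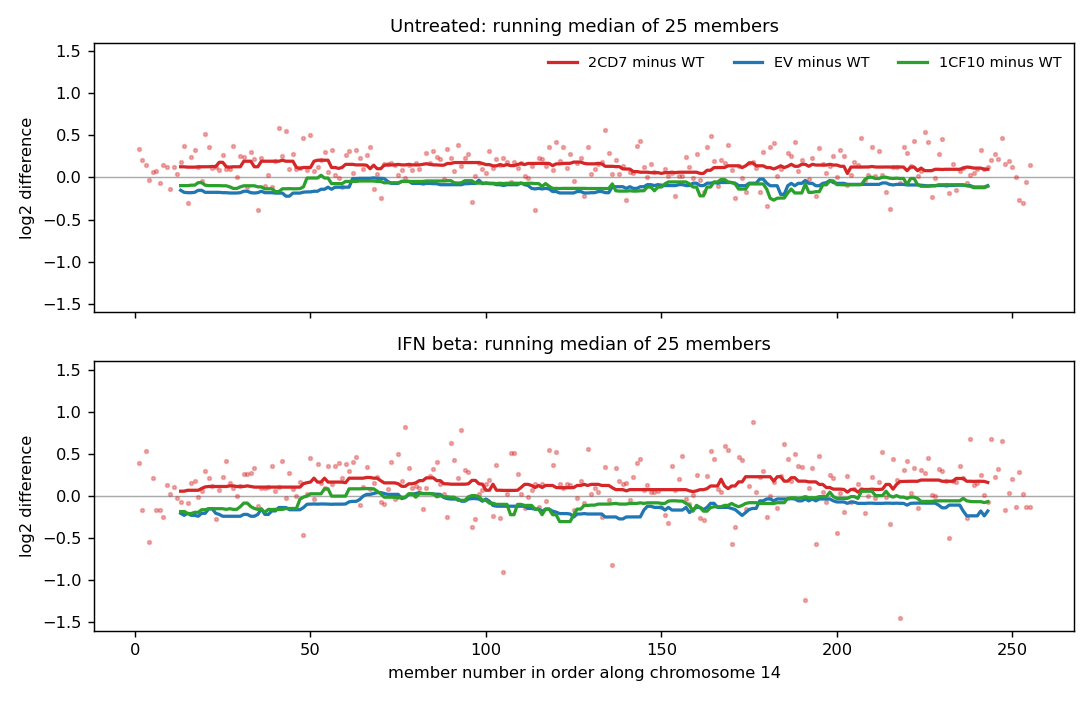
Log2 difference from WT against the order of the 255 members along chromosome 14, untreated (top) and after IFN beta (bottom); lines are running medians of 25 members for 2CD7 (red), EV (blue) and 1CF10 (green), and points are the members in 2CD7. The 2CD7 line stays above 0 over the length shown, and the EV line is below 0 over most of it.

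The members' roles were grouped in 10 lists that cover 153 of them, and 102 are on none. In untreated 2CD7 against the mean of the other lines, each list had a median log2 difference above 0. These ran from 0.11 in signalling and transcription factors to 0.29 in the secretory pathway and protein folding. Against WT alone, the matrix, protease and lysosome list was at -0.061, with 3 of 8 members above 0. Signalling and transcription factors were at 0.028 against WT, with 9 of 16 above 0, and the other lists at 0.060 to 0.22. An interferon list of 12 genes had 0 members at this minimum. The counts of calls in each list below stand beside 3.51% of all genes tested called higher untreated and 5.84% treated, and no list was tested against other genes.

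Among 8 ribosome and translation genes, 4 were called higher and 0 lower in each state, with a median of 0.25 untreated. Rps24 (chr14:24487125-24496959, plus strand), a protein of the small ribosomal subunit, had 934, 957 and 958 CPM in untreated 2CD7. It had 803, 796 and 835 CPM in WT, 669, 745 and 667 in EV and 691, 822 and 739.6 in 1CF10. All 3 libraries of 2CD7 lay above the 9 others, at a log2 difference of 0.34 ± 0.05 (SE). Rpl15 of the large subunit differed by 0.29 ± 0.05, Tpt1, the translationally controlled tumor protein, by 0.14 ± 0.05, and Mrpl52 of the mitochondrial ribosome by 0.22 ± 0.06. Tpt1 was not called, and the call of Mrpl52 was lost in DESeq2.

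RNA processing and export held 18 members, 9 called higher untreated and 8 treated. Mbnl2, a splicing regulator, had 247 ± 13.2 CPM in 2CD7 (SD, n = 3), 227 ± 8.62 in WT, 185 ± 11.0 in 1CF10 and 158 ± 21.9 in EV. The log2 differences of Acin1, a splicing-linked protein, and Thoc7 of the THO export complex were 0.33 ± 0.09 and 0.28 ± 0.06, the call of Acin1 being lost with the compared groups alone. Hnrnpc, which coats nascent transcripts, differed by 0.13 ± 0.06 and was not called. Of 18 chromatin and DNA repair genes 5 were called higher untreated and 7 treated, among them the abasic site endonuclease Apex1 at 0.25 ± 0.06 and Mphosph8 of the HUSH silencing complex at 0.26 ± 0.08 untreated, whose call was lost in DESeq2. Supt16, a subunit of the histone chaperone FACT, and Pbrm1, a subunit of the PBAF remodeller, gave 0.21 ± 0.10 and 0.22 ± 0.07, not called untreated.

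Among 11 cell cycle genes 1 was called higher untreated and 6 treated, with medians of 0.21 and 0.38. Cab39l, a partner of the LKB1 kinase complex, was the untreated call among the 4 most abundant members of the list, at 0.30 ± 0.08. Ppp2r2a, a regulatory subunit of protein phosphatase 2A, Diaph3, an actin-nucleating formin, and Cdkn3, a phosphatase of cyclin-dependent kinases, had differences of 0.14 ± 0.07, 0.16 ± 0.09 and 0.19 ± 0.10. The treated group mean of Diaph3 was 69.9 ± 3.65 CPM in 2CD7 and 52.5 ± 6.92 in WT.

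In the proteasome, ubiquitin and NEDD8 list 6 of 14 members were called higher untreated and 8 treated. Nedd8 (chr14:55662263-55672124, minus strand), the ubiquitin-like protein that activates cullin ligases, had 528, 542 and 523 CPM in untreated 2CD7. Its values were 512, 486 and 487 in WT, 438, 423 and 412 in EV and 398, 418 and 413 in 1CF10. The 2CD7 libraries lay above all others, WT next, and EV and 1CF10 lowest. Psmb5, the catalytic subunit with chymotrypsin-like activity, and Psmd6 of the proteasome lid differed by 0.23 ± 0.06 and 0.21 ± 0.06, the call of Psmd6 being lost in DESeq2 and with no filter on low counts. Uchl3, a hydrolase of ubiquitin and NEDD8, gave 0.20 ± 0.07 and was not called.

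The secretory list had 9 of 18 members called higher untreated and 11 treated. Dad1, a subunit of the oligosaccharyltransferase, Cnih1, a cargo exporter of the endoplasmic reticulum, and Spcs1 of the signal peptidase differed by 0.29 ± 0.05, 0.35 ± 0.07 and 0.28 ± 0.06, and the membrane protein Itm2b by 0.33 ± 0.06. Mitochondria and metabolism was the list with the most members, 24, of which 14 were called higher untreated and 11 treated, and 1, Pnp, lower treated. Vdac2 (chr14:21825238-21845879, plus strand), a channel of the outer mitochondrial membrane, had 368, 363 and 399.5 CPM in untreated 2CD7, 313, 305 and 296 in WT, 275, 304 and 321 in EV and 293, 276 and 285 in 1CF10. The 2CD7 libraries lay above all others, at 0.35 ± 0.05, WT lay above 1CF10, and EV overlapped with both. Timm23, the import channel of the inner membrane, Ghitm, an inner membrane protein, and Esd, a thioesterase, gave 0.26 ± 0.06, 0.29 ± 0.06 and 0.17 ± 0.05, and Esd was not called.

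Of 18 cytoskeleton and adhesion genes 4 were called higher untreated and 8 treated, and 1, Fndc3a, was called lower treated. Lmo7 (chr14:101729957-101934710, plus strand), a LIM and PDZ domain protein of cell junctions, had 202, 196 and 200.2 CPM in untreated 2CD7. It had 122, 165 and 148 in WT, 137, 113 and 117 in EV and only 83.9, 78.2 and 82.8 in 1CF10. All 2CD7 libraries lay above the rest and all 1CF10 libraries below, and the log2 difference of 2CD7 was 0.82 ± 0.07 untreated and 0.57 ± 0.07 treated. The focal adhesion proteins Vcl and Fermt2 differed by 0.14 ± 0.07 and 0.20 ± 0.06, neither called untreated.

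The matrix, protease and lysosome list had 1 of 8 members called higher in each state. This was Lgals3, the sugar-binding galectin-3, at 741 ± 14.9 CPM in untreated 2CD7 (SD, n = 3), against 678 ± 29.0 in EV, 608 ± 18.5 in 1CF10 and 565 ± 42.0 in WT. Clu, the extracellular chaperone clusterin, and Ctsb, the lysosomal protease cathepsin B, gave 0.05 ± 0.05 and 0.01 ± 0.06, and the receptor gene Lrp10 0.27 ± 0.10, none called. For Clu the mean of the other lines includes a low 1CF10, and the untreated 2CD7 libraries lay below those of WT and EV (values further on). Of 16 signalling and transcription factor genes 3 were called higher untreated and 7 treated, and 1, Elf1, lower treated. Bmp4 (chr14:46383520-46390669, minus strand), a secreted ligand of the TGF-beta family, had 103, 106 and 107 CPM in untreated 2CD7, 88.7, 79.4 and 88.3 in WT, 69.0, 69.4 and 73.8 in EV and 66.6, 64.1 and 71.4 in 1CF10, with 2CD7 above all others. The zinc finger factor Klf5 differed by 0.42 ± 0.08, while the transcriptional regulators Tsc22d1 and Zmiz1 gave 0.09 ± 0.05 and 0.06 ± 0.06 and were not called.

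The 5 largest untreated differences in 2CD7 were those of Anxa8, Lmo7, R3hcc1, Pdlim2 and Bmp4. Anxa8 (chr14:34085981-34100571, plus strand) encodes annexin A8, which binds phospholipids in the presence of calcium. It had 479, 566 and 558 CPM in untreated 2CD7, 461, 444 and 459 in WT, 291, 299 and 289 in EV and 187, 190.4 and 198 in 1CF10. No library of one line lay within the range of another line. R3hcc1 and Pdlim2, a PDZ and LIM domain protein bound to actin filaments, differed by 0.52 ± 0.14 and 0.52 ± 0.09 untreated, and Pdlim2 by 0.55 ± 0.09 treated. The untreated call of R3hcc1 was lost in DESeq2.

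Members at the other end were not called in 2CD7. Rgcc gave -0.25 ± 0.11, Loxl2, which crosslinks collagen, -0.25 ± 0.10, the mitochondrial carrier gene Slc25a30 -0.18 ± 0.09 and the pseudogene Cdv3-ps -0.17 ± 0.17.

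After IFN beta the 2CD7 libraries of Vdac2, Nedd8 and Lmo7 again lay above all others. Treated Vdac2 had 376, 347 and 372 CPM in 2CD7, 288, 311 and 308 in WT, 292, 291 and 279.7 in EV and 285, 294 and 285 in 1CF10. Treated Nedd8 had 531, 525 and 544 in 2CD7, 489.9, 506 and 497 in WT, 429, 418 and 446 in EV and 425, 392 and 392 in 1CF10. Treated Lmo7 had 192, 184 and 169.5 in 2CD7, 163, 132 and 148 in WT, 122, 133 and 121 in EV and 97.1, 89.4 and 110.3 in 1CF10. The 1CF10 libraries were again the lowest for Lmo7. Rps24 differed by 0.25 ± 0.05 treated, Bmp4 by 0.39 ± 0.08, Mbnl2 by 0.25 ± 0.06, Dad1 by 0.31 ± 0.05 and Klf5 by 0.42 ± 0.08, all called, while R3hcc1, at 0.04 ± 0.16, was not.

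**Figure D4:**
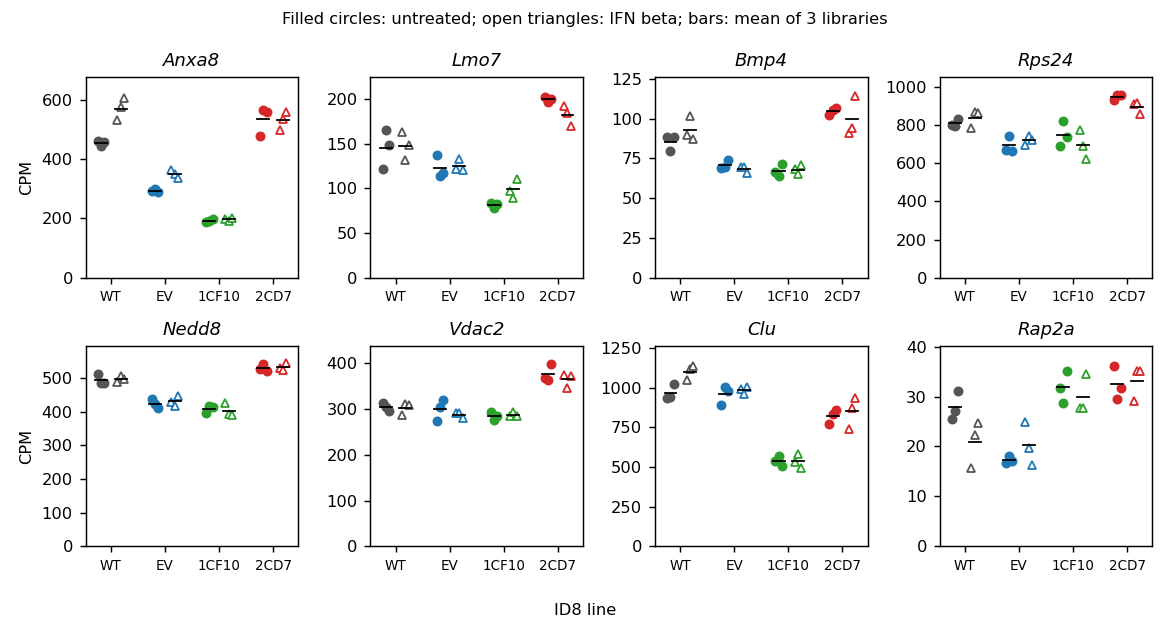
CPM of 8 members in each library by line; filled circles are untreated, open triangles IFN beta, bars the mean of 3 libraries, and each vertical axis starts at 0. Among untreated libraries, the mean of Anxa8, Lmo7, Bmp4, Rps24, Nedd8 and Vdac2 is highest in 2CD7, Clu is lowest in 1CF10, and the untreated mean of Rap2a is lowest in EV.

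The contrast between the control lines did not choose the members, although WT and EV both enter the mean that 2CD7 was set against. Untreated, 35 members were lower in EV than in WT and 4 higher by edgeR, where 6.98% and 7.11% of all genes tested were called, so 13.7% of the members against 6.98% of all genes were lower. After IFN beta 63 were lower, 24.7% of the members against 10.4% of all genes, and 7 were higher, against 8.94%. The 7 became 11 without treated EV library 2 or untreated EV library 3, 12 without treated 1CF10 library 3 and 13 without treated 2CD7 library 1. The median log2 difference was -0.10 untreated and -0.13 treated, the lowest of the 20 chromosomes in both states, where the other 19 ran from -0.037 to 0.25 and from -0.058 to 0.27. In both states 28 members were called lower, which is 80.0% of the untreated calls and 44.4% of the treated ones. Both contrasts compare the same lines, and the repeat of calls over all genes is not given here, so nothing is read from this overlap. Without untreated WT library 3 there were 23 untreated calls.

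Among the members lower in EV in both states, Dlg5, Sorbs3, Itm2b and Tbc1d4 had the largest differences. Dlg5, a scaffold of cell polarity, had 28.1, 20.5 and 28.0 CPM in untreated EV and 50.2, 43.7 and 53.4 in WT, a log2 difference of -0.95 ± 0.15 with an edgeR adjusted p of 3.56e-06. Itm2b (chr14:73362226-73385289, minus strand), a membrane protein of the BRI family, had 259, 234 and 259 CPM in EV and 422, 466 and 439.7 in WT, at -0.82 ± 0.07 with an edgeR adjusted p of 2.42e-13. Neither gene's EV libraries overlapped with those of WT. Sorbs3, the focal adhesion adaptor vinexin, differed by -0.78 ± 0.20 (edgeR adjusted p = 0.00347), and Tbc1d4, a Rab GTPase-activating protein, by -0.80 ± 0.17 (edgeR adjusted p = 4.83e-04). The treated difference of Sorbs3, -0.88, had an edgeR adjusted p of 0.0506 without treated EV library 2. The transcribed processed pseudogene Gm10110, whose counts are uncertain, was among the members higher in EV in both states, by 0.74 ± 0.10 untreated and 0.47 ± 0.10 treated.

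By role, the calls lower in EV were spread over 8 of the 10 lists untreated and over all 10 treated. Beside 6.98% and 10.4% of all genes tested, and with no test of any list, cytoskeleton and adhesion had 8 of 18 members lower untreated and 9 treated, the secretory pathway 5 and 7 of 18, mitochondria and metabolism 3 and 11 of 24, and signalling and transcription factors 3 and 5 of 16. Several of these were genes already named as high in 2CD7. Against WT, Mbnl2 in EV was at -0.52 ± 0.08 untreated and -0.48 ± 0.08 treated, Cab39l at -0.57 ± 0.10 and -0.64 ± 0.10, Pdlim2 at -0.53 ± 0.12 and -0.36 ± 0.11, Dad1 at -0.25 ± 0.07 and -0.36 ± 0.07, and Nedd8 at -0.22 ± 0.06 and -0.21 ± 0.06, all called by edgeR. The treated call of Nedd8 was lost without treated EV or WT library 2, and that of Pdlim2 in 4 of 24 fits that left out a library (edgeR adjusted p of up to 0.0824 and 0.153). Anxa8 was at -0.63 ± 0.07 (edgeR adjusted p = 5.19e-11) and -0.71 ± 0.07. Since EV enters the mean 2CD7 was set against, these values and the 2CD7 differences are not separate evidence.

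For clone 1CF10, whose libraries also enter the mean that 2CD7 was set against, the controls were the reference. Against the mean of WT and EV, 25 untreated members were lower and 7 higher by edgeR, beside 8.72% and 6.63% of all genes tested, and the median log2 difference was -0.035. Treated, 46 were lower and 25 higher, beside 14.8% and 13.7%, with a median of -0.031. The members' shares of lower calls, 9.80% and 18.0%, were near those of all genes. Their shares of higher calls, 2.75% and 9.80%, were below those of all genes. This reference averages WT with EV, which was itself low. Against WT alone, untreated, the WT libraries all lay above those of 1CF10 in 27.5% of members and all below in 8.63%. For genes of other chromosomes at the same minimum these shares were 18.3% and 20.6%. The median untreated ratio of WT to 1CF10 was 1.06 and of 1CF10 to EV 1.02. The 25 higher treated calls numbered 15 without treated 1CF10 library 3, the one that stood apart, and 16 without treated WT library 3, and the 7 untreated ones numbered 4 and 3 without untreated 1CF10 library 2 or 3. The fibroblast marker sum was also higher in 1CF10 (135 to 194 CPM, mostly Col1a1), and any link of it to these calls was not tested.

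Single members of 1CF10 lay farther from the controls. Anxa8 was lower in 1CF10 than in either control, at -0.93 ± 0.06 from their mean untreated (edgeR adjusted p = 1.63e-18) and -1.18 ± 0.06 treated. Clu (chr14:65968483-65981547, plus strand) had 538, 567 and 509.5 CPM in untreated 1CF10, 937, 942 and 1023 in WT, 891, 1006 and 978 in EV and 771, 834 and 857 in 2CD7. The 1CF10 libraries lay below all others, at -0.84 ± 0.06 from the controls (edgeR adjusted p = 1.16e-16), and the 2CD7 libraries lay below all of WT and EV. Fdft1, squalene synthase of the sterol pathway, had 54.9 ± 3.82 CPM in 1CF10 (SD, n = 3), 83.0 ± 1.16 in EV and 116 ± 5.59 in WT, at -0.83 ± 0.09 from the controls (edgeR adjusted p = 8.81e-11). Saysd1 was at -0.93 ± 0.16 untreated and -0.49 ± 0.15 treated, called by edgeR in both states.

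The members called higher in 1CF10 in both states included Rap2a, Polr3d, Zdhhc20 and Fermt2. Rap2a, a small GTPase of the RAS family, was higher by 0.53 ± 0.14 untreated (edgeR adjusted p = 0.00415) and by 0.54 ± 0.14 treated, Polr3d, a subunit of RNA polymerase III, by 0.31 ± 0.10 and 0.66 ± 0.11, and Zdhhc20, a palmitoyltransferase, by 0.41 ± 0.10 and 0.43 ± 0.10. Fermt2 was higher by 0.24 ± 0.07 and 0.26 ± 0.07, with its untreated call lost without 1CF10 library 1 or 2 (edgeR adjusted p of up to 0.0754). The untreated call of Polr3d was lost in DESeq2 and in 4 of 24 fits that left out a library, at an edgeR adjusted p of up to 0.239. Rap2a lost its calls without 1CF10 library 3 of the same state, at an edgeR adjusted p of 0.0693 untreated and 0.0523 treated.

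The members that rose after IFN beta did so in the control lines. In WT 13 members rose and 2 fell by edgeR, beside 5.16% and 1.62% of all genes tested, and in EV 8 rose and 4 fell, beside 3.89% and 1.15%. The members' shares were 5.10% and 0.78% in WT and 3.14% and 1.57% in EV, so rises were not more frequent than over all genes. The interferon-induced Irf9, Psme1 and Psme2 were left out of the members only. All 8 that rose in EV also rose in WT: Elf1, Fndc3a, Pnp, Cenpj, Lrch1, Ccdc25, Itm2b and Anxa8, of which Ccdc25 is outside the rule for named genes and was chosen after its values were seen. The other 5 that rose in WT were Sfmbt1, Anxa7, Zc3h13, Ctsb and Ghitm, at 0.72, 0.38, 0.30, 0.30 and 0.26. Leaving out 1 of the 24 libraries lost the call of Sfmbt1 in 2 fits, of Anxa7 in 3 and of Ghitm in 2. Styx and Cdca2 fell in WT (-0.58 and -0.53), and Slmap, Dis3, Mphosph8 and Zmiz1 fell in EV, at -0.49, -0.40, -0.37 and -0.28. Anxa7, Zc3h13, Styx, Cdca2, Slmap and Dis3 were likewise named after their values were seen, and 0 members fell in both controls. The falls depended on single libraries: 1 was called in WT without untreated library 1 or 3 or treated library 1, and in EV 1 was called without untreated library 1 or 2 or treated library 1 and 0 without treated library 3. In 1CF10 and in 2CD7, 0 members were called in either direction, as were 0 (0%) of all genes tested. Of the 255 members, 8 in 1CF10 and 15 in 2CD7 had an unadjusted edgeR p below 0.05. Of all 11698 genes tested, 481 and 505 did, and nothing is read from these counts.

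The promoters of 3 members are shown for the genes at the head of this response and for Anxa8, which responded and had the largest untreated difference in 2CD7. They are RefSeq promoters (GRCm38.p6, plus strand), with 250 bases before and 50 bases from an annotated start, which are in capitals: chr14:79480944-79481243 for Elf1, chr14:50944053-50944352 for Pnp and chr14:34085729-34086028 for Anxa8.
Elf1: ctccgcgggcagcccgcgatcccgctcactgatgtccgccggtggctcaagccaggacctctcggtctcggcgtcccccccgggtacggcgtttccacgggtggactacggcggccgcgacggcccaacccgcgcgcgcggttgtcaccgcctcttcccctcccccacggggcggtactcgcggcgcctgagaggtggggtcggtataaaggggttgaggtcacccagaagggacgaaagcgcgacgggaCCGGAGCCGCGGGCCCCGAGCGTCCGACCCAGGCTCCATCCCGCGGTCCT
Pnp: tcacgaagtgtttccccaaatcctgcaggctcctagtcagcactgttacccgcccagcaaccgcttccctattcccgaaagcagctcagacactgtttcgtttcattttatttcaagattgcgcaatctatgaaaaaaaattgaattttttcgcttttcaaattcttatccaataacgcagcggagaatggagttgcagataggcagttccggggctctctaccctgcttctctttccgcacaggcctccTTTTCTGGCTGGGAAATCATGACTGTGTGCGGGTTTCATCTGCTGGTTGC
Anxa8: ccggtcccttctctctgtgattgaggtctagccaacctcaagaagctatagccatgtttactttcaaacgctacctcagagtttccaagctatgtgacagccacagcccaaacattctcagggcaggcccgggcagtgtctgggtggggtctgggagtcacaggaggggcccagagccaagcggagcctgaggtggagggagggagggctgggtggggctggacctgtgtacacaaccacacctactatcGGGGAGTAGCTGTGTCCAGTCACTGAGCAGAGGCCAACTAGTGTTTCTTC
The letters GAAA, any 2 bases and again GAAA, searched on both strands with overlapping matches allowed, form the core of the element that interferon-activated factors bind. They were in 0 of 7 promoters held for 6 of the 8 raised members, in 4 of 214 promoters (1.87%) of 170 members and in 1131 of 32851 promoters (3.44%) in all. This says only that the letters are not in these windows.

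Elf1 (chr14:79481194-79582494, plus strand), an ETS family transcription factor, had 44.8, 44.7 and 51.3 CPM in untreated WT and 120.2, 126 and 134 after IFN beta. In EV it went from 37.3, 47.2 and 32.8 to 73.3, 89.6 and 79.2 CPM. In 1CF10 the values were 41.1, 39.3 and 36.7 untreated and 33.4, 33.3 and 33.9 treated, and in 2CD7 39.8, 47.7 and 48.3 and 53.1, 44.3 and 41.8. All treated libraries of the controls lay above the untreated ones, those of 1CF10 lay below, and those of 2CD7 overlapped. The log2 response was 1.42 ± 0.11 in WT (edgeR adjusted p = 2.32e-16), 1.05 ± 0.12 in EV, -0.21 ± 0.13 in 1CF10 and 0.04 ± 0.13 in 2CD7.

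Fndc3a (chr14:72537946-72710003, minus strand), a membrane protein with fibronectin type III domains, rose from 60.9, 58.3 and 53.0 to 130.4, 112 and 121 CPM in WT and from 44.8, 50.1 and 41.7 to 84.6, 102 and 85.3 in EV. Its response was 1.08 ± 0.11 in WT and 1.00 ± 0.12 in EV, and -0.09 ± 0.12 in 2CD7. Pnp (chr14:50931082-50965237, plus strand), the purine nucleoside phosphorylase, rose from 74.8, 84.0 and 70.5 to 174, 169 and 179 CPM in WT, and by 0.81 ± 0.10 on the log2 scale in EV. It has a close copy next to it, Pnp2, so the split of its counts is uncertain. Cenpj, a centriole assembly protein, rose by 0.81 ± 0.19 in WT and 0.81 ± 0.21 in EV, with an edgeR adjusted p of 0.0545 in WT without untreated WT library 3, and of at most 0.113 in EV without treated EV library 2 or untreated EV library 3.

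Smaller responses were those of Lrch1, Ccdc25, Itm2b and Anxa8. Ccdc25 rose by 0.65 ± 0.09 in WT and 0.52 ± 0.09 in EV, Itm2b by 0.38 ± 0.07 and 0.40 ± 0.07, and Anxa8 by 0.33 ± 0.06 and 0.26 ± 0.07. Lrch1 rose by 0.61 ± 0.17 in WT, with an edgeR adjusted p of up to 0.161 without untreated WT library 1 or treated WT library 3, and by 0.80 ± 0.19 in EV. In 2CD7 the response values of Ccdc25, Itm2b, Anxa8 and Lrch1 were -0.01, 0.03, -0.01 and 0.17. After treatment Anxa8 had 532, 575 and 606 CPM in WT and 498, 535 and 559 in 2CD7, and these overlapped, unlike the untreated levels.

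The mean response of the controls was set against that of the clones in 1 test. By edgeR 9 members (3.53%) responded more in the controls and 3 (1.18%) less, beside 3.72% and 1.44% of all genes tested. The 3 calls below 0 numbered 1 without untreated 1CF10 library 2 or treated 2CD7 library 1 and 0 without treated EV library 2. For the response of 2CD7 against that of 1CF10, 0 members were called by edgeR (0% of all genes tested). This does not show that the clones were alike. At an unadjusted edgeR p below 0.05 there were 12 of 255 members and 473 of all 11698 genes tested.

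**Figure D5:**
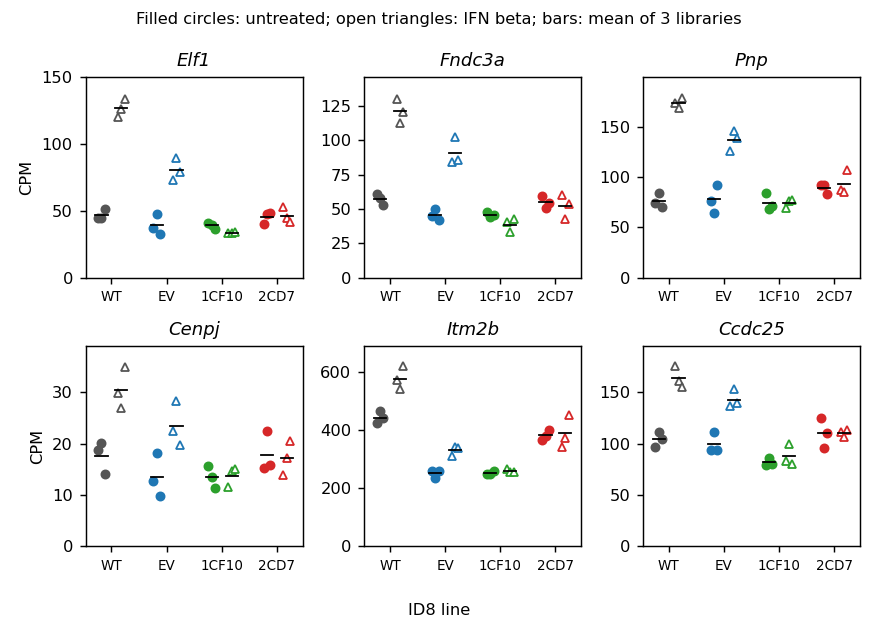
CPM of 6 members raised by IFN beta in WT and EV, in each library by line; filled circles are untreated, open triangles IFN beta, bars the mean of 3 libraries, and each vertical axis starts at 0. The treated libraries of WT and EV lie above the untreated ones of the same line, and those of 1CF10 and 2CD7 lie near their untreated ones.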

How the data were processed

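RNA was counted in 24 libraries, 3 in each of 8 groups, as 3′ tags with UMIs of 10 bp, per the labels' protocols. The authors deposited whole-number UMI counts per gene, and the submitters' processing notes name cutadapt 3.0, R 3.6.2 and 4.1.2, edgeR 3.36.0, limma 3.50.0 and the GRCm38 build. No aligner is given in the labels or the notes, and reads shared by near-identical copies are uncertain. Genes were matched to GENCODE M21 (255 of 255 members).

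Here the counts were fitted with edgeR 4.0.16 (quasi-likelihood F test, TMM scaling, 8 group means, R 4.3.3) over the 11698 genes that passed its filter (minimum count 10, total 15). P-values were adjusted by Benjamini-Hochberg over all genes, with a call at 0.05, and tests were two-sided. CPM uses TMM-scaled totals, and levels per library add 0.5 to each count. The alternatives were limma 3.58.1 voom, DESeq2 1.42.0, other scalings, filters and member minimums, the compared groups alone, a replicate block, coding members only and each library left out. Steps were tested on simulated data. Members and lists were chosen with earlier results of these data known. Named genes were the 4 most abundant members of each list, the 5 highest and 5 lowest in untreated 2CD7, up to 5 per direction with an IFN beta response in both controls, up to 4 per direction called in both states in EV and in 1CF10, and the 3 on each side of the minimum. Genes named outside this rule are said to be so, and 1 named by it is not reported here. Depth, at 1972192 to 3097331 UMIs a library, limits the precision of members near the minimum.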

Additional observations from a re-analysis of the deposited data

Results flagged for a closer look

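The difference between the mean IFN beta response of WT and EV and that of 1CF10 and 2CD7 passed edgeR's quasi-likelihood test (adjusted p below 0.05) for 12 members. Of the members, 3.53% responded more in the controls and 1.18% less, near the 3.72% and 1.44% of all genes tested. Elf1 differed by 1.32 on the log2 scale, Fndc3a by 1.21, Pnp by 0.98, Cenpj by 0.82, Sfmbt1 by 0.70, Ccdc25 by 0.54, Itm2b by 0.36, Anxa7 by 0.35 and Anxa8 by 0.28, each with the greater response in the controls. Sorbs3 differed by -0.76, Cdca2 by -0.45 and Zmiz1 by -0.25, with the lower response in the controls. The calls for Elf1, Fndc3a, Pnp, Cenpj, Ccdc25, Itm2b and Anxa8 held with any 1 of the 24 libraries left out. Zmiz1 lost its call in 17 of the 24, at an edgeR adjusted p of up to 0.171, Cdca2 in 12, at up to 0.128, Anxa7 in 4, at up to 0.0852, and Sfmbt1 in 3, at up to 0.0543. Sorbs3 lost it without treated EV library 2, at an edgeR adjusted p of 0.0502. The calls of Anxa7 and Cdca2 were among those lost in DESeq2. The 4 lines differ in more than the state of Ifnar1, since each knockout line is 1 clone, and these cannot be told apart.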

How the results depend on the processing

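No result changed sign in a way that reversed a call, and depth limits the precision of members near the minimum of 40 UMIs. The share of UMIs had the order 2CD7, WT, then 1CF10 and EV under the 3 choices of members given next. Without the 5 most abundant members, with a minimum of 20 and with a minimum of 100 UMIs, the untreated shares were 2.56%, 3.08% and 2.77% in WT, 2.38%, 2.86% and 2.58% in EV, 2.42%, 2.89% and 2.59% in 1CF10, and 2.79%, 3.31% and 2.98% in 2CD7, and the treated ones 2.54%, 3.08% and 2.78%, 2.35%, 2.84% and 2.56%, 2.43%, 2.89% and 2.59%, and 2.79%, 3.31% and 2.97%. With protein-coding members only, a choice made after seeing the data, the median log2 difference was 0.23 untreated and 0.24 treated in 2CD7 against the mean of the others, 0.28 and 0.29 against EV, 0.25 treated against 1CF10 and -0.12 in untreated EV against WT, and 1 member was lower in untreated 2CD7 than in EV.

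DESeq2 called 4 members higher in untreated 1CF10 and 15 in treated 1CF10, 0 fallen in the EV response, 0 lower in untreated 2CD7 against WT, 1 lower against 1CF10 in each state, and 1 with a lower response in the controls than in the clones. With the compared groups alone, 18 members were higher in treated EV than in WT with a median of -0.11, 5 fell in the WT response and 2 in the EV response, and 2 were lower in untreated 2CD7 than in WT. With no filter on low counts, 1 was lower in untreated 2CD7 than in the mean of the others, 2 fell in the EV response with a median of 0.0049, and the untreated 1CF10 median was -0.019. A minimum count of 30 gave medians of 0.0051 in the EV response and 0.24 in treated 2CD7 against EV. With a member minimum of 20 UMIs, 5 were lower in treated 2CD7, 4 lower in untreated 2CD7 than in 1CF10, and the treated median against 1CF10 was 0.20. With a minimum of 100, 15 were higher in treated 1CF10 with a median of -0.054, 1 fell in the WT response, and the medians were 0.24 for treated 2CD7 against 1CF10 and 0.032 for the difference in response. The causes were not tested.

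Leaving out each library in turn gave 38 to 88 members higher in untreated 2CD7 (median 0.19 to 0.21), 3 to 5 lower in treated 2CD7 (median 0.18 to 0.22), 3 to 9 higher in untreated 1CF10 (median -0.044 to -0.017), 15 to 25 in treated 1CF10 (median -0.055 to -0.027), 23 to 41 lower in untreated EV (median -0.12 to -0.080) and 5 to 13 higher in treated EV (median -0.14 to -0.11). It gave 1 to 3 falls in the WT response, 0 to 3 in the EV response (median -0.0054 to 0.024), a median of -0.0090 to 0.018 for 2CD7 less 1CF10 in response, and 0 to 4 lower responses in the controls (median 0.0014 to 0.032). For untreated 2CD7 it gave 10 to 33 higher and 0 to 2 lower against WT, 47 to 86 higher and 1 to 3 lower against EV (median 0.22 to 0.25), and 1 to 3 lower against 1CF10 (median 0.22 to 0.24). For treated 2CD7 it gave 29 to 51 higher and 9 to 16 lower against WT (median 0.11 to 0.15), a median of 0.22 to 0.25 against EV, and 1 to 5 lower against 1CF10 (median 0.20 to 0.23). Of the values for single genes under the alternatives, 7452 kept their direction and side of the threshold, 305 lost a call, 29 gained one and 46 moved.

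No clear pairing of libraries by replicate number was seen, although these values cannot exclude a weak one. Deviations from group means of same-numbered libraries had a mean correlation of 0.0068, against -0.0034 for other numbers. Of 24 libraries, 12 were closest to their own number. With the replicate number as a block, 78 members were higher in untreated 2CD7 and 92 treated, 38 lower in untreated EV and 63 treated, and 13 rose in the WT response and 8 in the EV response. The shares of all genes called under these alternative fits are not given here, so the counts are not set against a background.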
